A study of Mus musculus with 2 samples.

Results

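Interleukins are secreted messengers with which leukocytes, epithelium and connective tissue cells instruct each other, and each acts through a receptor built from a few subunits that are often shared between ligands. Ligand supply, receptor subunits, soluble antagonists and decoy receptors together set the response. In the lung these genes are known from airway defence, allergic inflammation and the upkeep of resident lymphocytes and macrophages, and cultured fibroblasts are a known source of some of the ligands. The genes described here are all those whose single annotated symbol starts with Il followed directly by a number. There were 77 of them among 19532 measured genes, read by 116 probes. By role, 35 encode ligands, 35 encode receptor subunits, 5 encode antagonists or decoys, and 2 belong to neither kind.

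Uncultured and untreated mouse lung, which the series calls somatic lung cells, was compared with mouse embryonic fibroblasts (MEF), which are fibroblast cultures derived from embryos. The 2 lung samples, numbered 1 and 2 in the labels, were labelled with Cy3, and each was hybridised on its own two-colour Agilent array together with Cy5-labelled MEF RNA. The MEF were kept in DMEM with heat-inactivated fetal bovine serum and non-essential amino acids, and RNA of every sample was total RNA taken from cell pellets. The strain and age of the mice, the number of animals behind a lung sample and the number of MEF cultures are stated in none of the sources used, so p-values measure only the spread between these samples, which may be technical. Each value below is the lung signal divided by the MEF signal on 1 array, as log2. The deposited table does not state the direction or the base of its logarithm. Its positive side was read as higher in lung because all 22 values of 11 surfactant, club cell and alveolar genes, chosen to set the sign, lay between 4.30 and 7.78. The series text describes lung set against MEF, which makes this direction likely, although it is opposite to the scanner software's usual Cy5 over Cy3. Ratios carry no level: which of 2 genes is more abundant cannot be read from them, and a ratio may rest on a dim channel. Since lung is a mixture of cells, fewer cells of a type and less RNA per cell cannot be told apart.

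The labels were first set against marker genes. All 5 endothelial markers and all 6 epithelial markers were higher in lung, although 3 of the epithelial ones also set the sign. All 8 markers of cultured fibroblasts were lower in lung, from -7.62 for Col1a1 to -1.51 for Thy1. Across all genes the arrays gave Pearson's r of 0.98, and the median log2 ratio was -0.21. Receptor genes of smell and pheromone sensing (olfactory and vomeronasal), which sensory neurons transcribe, give a yardstick for ratios without much signal. The central 95% of their 1043 genes had bounds of -1.39 and 1.22 for lung replicate 1, and of -1.44 and 1.24 for lung replicate 2, and "the receptor range" below means these bounds.

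The interleukin genes ranged from Il18r1, among the highest of all genes in lung, to Il1rn, the antagonist of IL-1. At least 2-fold higher in lung on both arrays were 19 of the 77 genes (24.7%, against 17.1% of all genes), and 6 were at least 2-fold lower (7.79%, against 15.4% of all genes). Taken in either direction the share was 32.5%, the same as the 32.5% of all genes, so the number of 2-fold differences is that of the background. By limma's moderated test with Benjamini-Hochberg adjustment over all genes, 33 were higher (background 32.6%) and 28 lower (background 43.6%), and 16 did not pass an adjusted p of 0.05. The test called 76.2% of all genes, so passing it says little without the size of the ratio. The median over the 77 genes was 0.08, against -0.21 over all genes.

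All 25 genes past 2-fold also passed the test, with adjusted p-values by limma of at most 0.0169. They comprised 7 ligands, 9 receptor subunits, 2 antagonists or decoys and 1 enzyme on the higher side. On the lower side stood 2 ligands, 2 receptor subunits and 2 antagonists or decoys. Above the receptor range on both arrays lay 18 genes (23.4%, against 14.6% of all genes), every 2-fold higher one except Il18bp. Below it lay 3 (3.90%, against 8.91% of all genes): Il1rn, Il20ra and Il6. Of the 36 called genes that were not 2-fold apart, 14 were higher (0.28 to 1.00) and 22 lower (-0.85 to -0.17). Those small differences depend on the zero point. Centring the arrays on those sensory receptor genes gave other counts. It moved the median of all genes to 0.20, and only 10 of the 28 genes called lower were still called lower (Il1rn, Il20ra, Il6, Il22ra2, Il3ra, Il1f10, Il6st, Il25, Il19 and Il13), and Il17rd and Il1f6 were called higher. All 33 genes called higher were called higher with this centring and with each array centred on its own median.

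**Figure D1:**
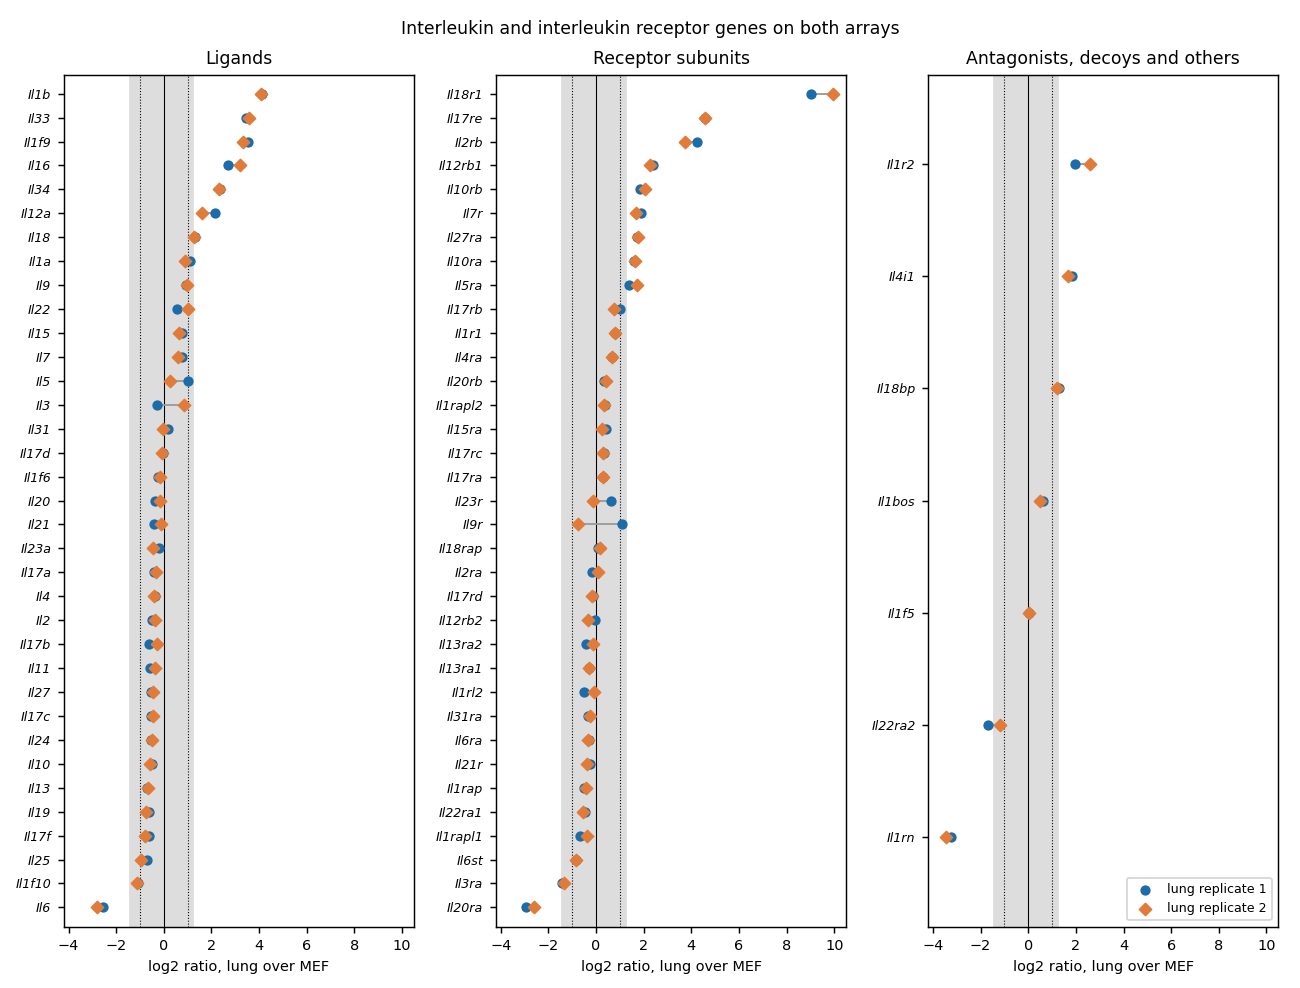
Log2 ratio of lung over MEF (x axes) for each of the 77 genes (rows), sorted by mean within ligands, receptor subunits, and antagonists, decoys and others. Circles are lung replicate 1 and diamonds lung replicate 2; dotted lines mark 2-fold and the grey band spans -1.44 to 1.24, the wider bounds of the receptor range. Most genes lie inside the band, Il18r1 stands alone at 9.01 and 9.97, and Il1rn, Il20ra and Il6 lie to the left of the band.

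The 3 genes below the receptor range were Il1rn, Il20ra and Il6, and Il1b was the highest ligand. Their promoters are shown because they are the 3 lowest of the 77 genes and the highest ligand. RefSeq (build GRCm38.p6) gave a promoter for 60 of the 77 genes. The 250 bases before the outermost listed start are printed 5′ to 3′, all on the strand of the gene. Il1rn has 3 listed starts, and only the window before its outermost one is shown.
Il1rn, chr2:24336610-24336859, plus strand: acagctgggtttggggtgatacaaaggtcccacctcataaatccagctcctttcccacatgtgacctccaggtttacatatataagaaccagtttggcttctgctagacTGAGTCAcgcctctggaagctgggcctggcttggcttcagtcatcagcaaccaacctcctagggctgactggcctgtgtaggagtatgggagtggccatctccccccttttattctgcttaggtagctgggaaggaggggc
Il20ra, chr10:19712337-19712586, plus strand: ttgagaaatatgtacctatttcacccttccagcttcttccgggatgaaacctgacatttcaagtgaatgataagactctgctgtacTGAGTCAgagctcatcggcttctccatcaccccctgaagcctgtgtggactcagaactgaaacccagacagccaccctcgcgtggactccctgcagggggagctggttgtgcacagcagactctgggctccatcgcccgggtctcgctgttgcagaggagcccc
Il6, chr5:30012864-30013113, plus strand: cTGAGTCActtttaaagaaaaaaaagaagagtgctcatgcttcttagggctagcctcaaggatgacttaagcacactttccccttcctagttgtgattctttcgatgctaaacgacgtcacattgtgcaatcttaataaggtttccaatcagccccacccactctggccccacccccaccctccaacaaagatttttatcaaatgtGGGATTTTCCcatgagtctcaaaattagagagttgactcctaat
Il1b, chr2:129371140-129371389, minus strand: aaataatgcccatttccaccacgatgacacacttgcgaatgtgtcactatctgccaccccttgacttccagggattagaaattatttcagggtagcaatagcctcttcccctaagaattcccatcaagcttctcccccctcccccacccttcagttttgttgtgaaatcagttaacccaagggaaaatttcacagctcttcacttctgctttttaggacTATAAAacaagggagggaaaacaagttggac
Capitals mark the matches of 4 motifs searched on both strands: the AP-1 motif TGANTCA, the STAT motif TTCNNNGAA, the TATA motif TATAAA and the NF-kB motif. No match overlapped another in these windows. The AP-1 letters began 141 bases before the start in Il1rn, 164 in Il20ra and 249 in Il6, and Il6 also held the NF-kB motif 44 bases before its start. In Il1b the TATA motif began 31 bases before the start.
Of the 5 genes 2-fold lower that had a promoter, 3 held the AP-1 letters, as did 2 of 13 that were 2-fold higher (Il16 and Il5ra), 11 of all 60 (18.3%) and 6.85% of 27025 promoters in the table. The STAT letters were found in 0 of the 5, 3 of the 13 (Il1f9, Il1r2 and Il7r) and 7 of the 60 (11.7%), against 7.14% of all promoters. TATAAA was found in 0 of the 5, 3 of the 13 (Il18, Il1b and Il33) and 12 of the 60 (20%), against 13.0% of all promoters. The NF-kB motif was found in 1 of the 5, 0 of the 13 and 4 of the 60 (6.67%), against 7.03% of all promoters. A match says only that the letters are present.

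In the IL-1 family, ligands were mostly higher in lung and the receptor antagonist was lower. Il1b, the inflammatory cytokine made by activated myeloid cells, had log2 ratios of 4.11 and 4.09 on lung replicates 1 and 2. Il33, an alarmin stored in the nuclei of barrier cells, had 3.44 and 3.59. Il1f9, which encodes IL-36 gamma, an epithelial cytokine, had 3.54 and 3.33. All 3 were far above the receptor range on both arrays, at 17.2-fold for Il1b (4.10 ± 0.015, SD, n = 2; adjusted p = 0.00162 by limma), 11.4-fold for Il33 (3.51 ± 0.10) and 10.8-fold for Il1f9 (3.44 ± 0.15). The 2 probes of Il1f9 had 2.72 and 1.82, and 4.37 and 4.85 (replicates 1 and 2), shifts that partly cancel in its mean. Il18, which like IL-1 beta is matured by caspase-1, was 2.45-fold higher with 1.32 and 1.26, just above the range. Il1a, the cell-associated form of IL-1, had 1.10 and 0.90, so it reached 2-fold on 1 array only, and its 2 probes averaged 0.19 and 1.81. Il1f10, which encodes IL-38, was lower with -1.09 and -1.14. Il1f6, which encodes IL-36 alpha, had -0.24 and -0.16, called lower as deposited and higher with the olfactory centring. Both lay inside the receptor range.

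The antagonists and decoys of the family did not move as 1 group. Il1rn encodes the protein that occupies the IL-1 receptor without signalling, and its log2 ratios were -3.26 and -3.47, or 10.3-fold lower in lung (-3.37 ± 0.15, adjusted p = 0.00191 by limma). Only 290 of all genes were lower. Both of its probes were low, at -3.64 and -3.10. Il1r2, the decoy receptor that binds IL-1 and lacks a signalling domain, went the other way with 1.97 and 2.60 (2.29 ± 0.45, adjusted p = 0.0106 by limma). Il18bp, a soluble protein that captures IL-18, had 1.28 and 1.20, with 1 probe at 0.46 and the other at 2.01. Il1f5, the IL-36 receptor antagonist, averaged 0.02 on both arrays, from 1 probe at -0.29 and another at 0.33. The difference between Il1b and its antagonist Il1rn was 7.37 log2 units in replicate 1 and 7.56 in replicate 2.

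Among the 7 IL-1 family receptor subunits, 1 was 2-fold apart (14.3%, against 32.5% of all genes). Il18r1 encodes the ligand-binding chain of the IL-18 receptor, carried by NK cells and T cells among others, and had log2 ratios of 9.01 and 9.97. That is 719-fold at face value (9.49 ± 0.68, adjusted p = 0.00263 by limma), and only 1 gene of 19532 stood higher. The value rests on 1 probe. Without moderation of the variance its adjusted p was 0.0685. Il18rap, the signalling partner chain of the same receptor, had 0.08 and 0.17 and did not pass the test (adjusted p = 0.102 by limma), although it was called higher with either centring. The partner chains differed by 8.93 and 9.80 log2 units (replicates 1 and 2). Il18rap was read by 2 probes, at 0.52 and -0.27. Il1r1, the signalling receptor for IL-1, was higher at 0.78 and 0.77. Its accessory chain Il1rap, shared with the receptors for IL-33 and IL-36, was lower at -0.49 and -0.40. Il1rl2, the IL-36 receptor, had -0.51 and -0.08 and did not pass the test. The neuronal relatives had opposite signs as deposited, with Il1rapl1 lower (-0.66 and -0.39) and Il1rapl2 higher (0.36 and 0.33), all inside the receptor range. With the olfactory centring neither Il1rapl1 (-0.11) nor Il1rap (-0.03) was called lower. The values of Il1rl1, the IL-33 receptor, were not analysed here.

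Among genes of lymphocyte growth factors, 2 of 9 receptor subunits and 0 of 7 ligands were 2-fold apart on both arrays, a difference that was not tested. Il2rb, the beta chain shared by the receptors for IL-2 and IL-15 and typical of NK cells and memory T cells, had log2 ratios of 4.24 and 3.75, or 15.9-fold (3.99 ± 0.35, adjusted p = 0.00328 by limma). Il2ra, the alpha chain that raises affinity for IL-2, averaged -0.17 and 0.10 and did not pass the test. Its 4 probes ran from -0.62 to 0.97. Il7r, the IL-7 receptor alpha chain of lymphocytes, had 1.88 and 1.68, while its 3 probes ran from 0.42 to 3.52. Only the highest of these probes lay above the receptor range on both arrays. Il4ra (0.68 and 0.66), which serves IL-4 and IL-13, and Il15ra (0.43 and 0.25), which presents IL-15, were higher by less than 2-fold. Il13ra1, the partner of Il4ra for IL-13, was lower at -0.31 and -0.28, and Il21r was lower at -0.27 and -0.38, and both calls were lost with either centring. Il13ra2, the decoy-like IL-13 receptor, was counted here with the receptor subunits. Its ratios were -0.41 and -0.14, and it did not pass the test. The 2 arrays gave opposite signs for Il9r, with 1.10 and -0.77, the largest gap between arrays of all 77 genes.

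None of the 7 ligands in this group reached 2-fold on both arrays, against 32.5% of all genes. Il9, a mast cell growth factor, came closest with 0.95 and 0.99. Il15 (0.77 and 0.63) and Il7 (0.75 and 0.60), which sustain NK cells and lymphocytes, were higher by the test. Il13 (-0.69 and -0.65), Il4 (-0.38 and -0.40) and Il2 (-0.49 and -0.38) were lower, and of these only Il13 was called lower with each of the centrings. Il21 had -0.40 and -0.14 and did not pass. Receptors that use the common beta chain split: Il5ra, the eosinophil receptor chain for IL-5, was higher at 1.40 and 1.70 (1.55 ± 0.21), and Il3ra, the alpha chain for IL-3, was lower at -1.42 and -1.35 (-1.39 ± 0.05, adjusted p = 0.00219 by limma). Their ligands Il5 (1.00 and 0.27) and Il3 (-0.30 and 0.87) did not pass the test.

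In the gp130 family, named for the shared signal transducer, Il6 was the lowest ligand of all. Il6, the cytokine of fever and acute inflammation that fibroblasts also secrete, had log2 ratios of -2.54 and -2.82, or 6.40-fold lower in lung (-2.68 ± 0.20, adjusted p = 0.00282 by limma). Both values were below the receptor range. Il6st, which encodes gp130 itself, was lower at -0.84 and -0.86, and Il6ra, the ligand-binding chain for IL-6, was lower at -0.28 and -0.35, a call it lost with either centring. Il11, another gp130 ligand, had -0.58 and -0.39. Il27, which encodes a subunit of IL-27, had -0.53 and -0.45. Il27ra, whose product pairs with gp130 on lymphocytes, went the other way with 1.73 and 1.78 (3.37-fold). The ratio of Il27ra exceeded that of Il6st by 2.57 and 2.64 log2 units (replicates 1 and 2). Il31 (0.19 and -0.03) did not pass the test, and Il31ra, its receptor chain, which pairs with Osmr, was lower at -0.34 and -0.27, a call lost with either centring.

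The IL-12 family, which steers T cells and NK cells, was led by the shared receptor chain. Il12rb1, used by the receptors for IL-12 and IL-23, had log2 ratios of 2.39 and 2.28, or 5.05-fold (2.34 ± 0.08, adjusted p = 0.00182 by limma). The partner chains did not pass the test, with Il12rb2 at -0.04 and -0.35 and Il23r at 0.62 and -0.13. Il12a, the p35 subunit of IL-12, had 2.15 and 1.58 and was above the receptor range on both arrays (1.87 ± 0.40). Tested against a 2-fold change in place of 0, its adjusted p by limma was 0.076. Il23a, the specific subunit of IL-23, had -0.22 and -0.44 and did not pass.

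In the IL-10 family the receptor for IL-10 was higher and a receptor and a decoy of related cytokines were lower. Il10ra, the ligand-binding chain found on leukocytes, had log2 ratios of 1.61 and 1.62. Il10rb, the accessory chain shared with IL-22 and interferon lambda, had 1.83 and 2.06 (1.94 ± 0.17), and its probes agreed at 1.92 and 1.96. Both chains were thus above the receptor range, while Il10 itself had -0.48 and -0.57. Il20ra, the alpha chain for IL-19, IL-20 and IL-24, had -2.93 and -2.61, or 6.82-fold lower in lung (-2.77 ± 0.23, adjusted p = 0.00315 by limma). Its partner Il20rb averaged 0.35 and 0.40, with 2 probes near 1.0 and the third at -0.91. Il22ra2, which encodes the soluble IL-22 binding protein, had -1.70 and -1.18 (-1.44 ± 0.37, adjusted p = 0.0169 by limma), and its probes stood at -2.62 and -0.26. Il22ra1, the signalling receptor for IL-22, was lower at -0.47 and -0.56. The ligands Il19 (-0.69), Il24 (-0.51) and Il20 (-0.25) lay inside the receptor range. Il22 averaged 0.57 and 1.02, from 1 probe at 1.85 and another at -0.25.

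In the IL-17 family all ligands lay inside the receptor range and a single receptor was above it. Il17re encodes the receptor chain for IL-17C, which is found on epithelium, and had log2 ratios of 4.58 and 4.56, or 23.7-fold (4.57 ± 0.015, adjusted p = 0.00162 by limma). Its probes averaged 3.31 and 5.83, both above the receptor range. On replicates 1 and 2 these probes had 3.26 and 3.35, and 5.89 and 5.76, shifts that partly cancel in the gene mean. Its partner chain Il17ra, used by most ligands of the family, had 0.28 on both arrays, and Il17rc, which serves IL-17A and IL-17F, had 0.33 and 0.30. Il17rb, which serves IL-25, was higher at 1.02 and 0.76. Of the 6 ligands, Il25 (-0.84), Il17f (-0.71), Il17c (-0.50) and Il17a (-0.37) were called lower and Il17b (-0.45) and Il17d (-0.07) were not, all by means of both arrays. With the olfactory and vomeronasal centring only Il25 was called lower among them, and Il17d was called higher.

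Members outside these families were higher. Il16, a chemoattractant for CD4 T cells, had log2 ratios of 2.70 and 3.18, or 7.68-fold (2.94 ± 0.33, adjusted p = 0.00467 by limma). Il34, the ligand that shares the macrophage receptor Csf1r with Csf1, had 2.35 and 2.32, or 5.04-fold (2.33 ± 0.019, adjusted p = 0.00163 by limma). The receptor gene Csf1r itself was called lower as deposited, at -0.26 and -0.23. These values lay inside the receptor range and near the median of -0.21 over all genes. Il4i1, a secreted amino acid oxidase of antigen-presenting cells, had 1.83 and 1.66. Il1bos, a transcript from the strand opposite Il1b, had 0.63 and 0.47.

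Several means hide probes that disagree. Of the 29 genes with more than 1 probe, 14 had probes more than 1 log2 unit apart and 6 had probes more than 2 apart. Il7 is an example: 1 probe averaged 2.56 and the other 2 lay at -0.29 and -0.24. Probe values near 0 were also not spread evenly. A dense knot of probes lay within 0.06 of -0.37 (replicate 1) and -0.13 (replicate 2). It held 3188 of 41174 probes (7.74%), 132 of 1094 olfactory and vomeronasal probes (12.1%) and 12 of the 116 interleukin probes (10.3%). Bands at the knot's value of each array, -0.37 or -0.13, were seen across the probes but were not counted. Without the knot, Il20, Il21 and Il13ra2 had no probe left. Il22 was then 2-fold higher, at 1.51 and 2.18, and Il7 averaged 1.13. Il22ra2 moved to -3.02 and -2.22, and Il18rap to 0.54 and 0.49, where it passed the test. Il22ra2 was the only one of the 25 genes past 2-fold that had a probe in the knot. The raw signals that could say what the knot holds were not used here.

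**Figure D2:**
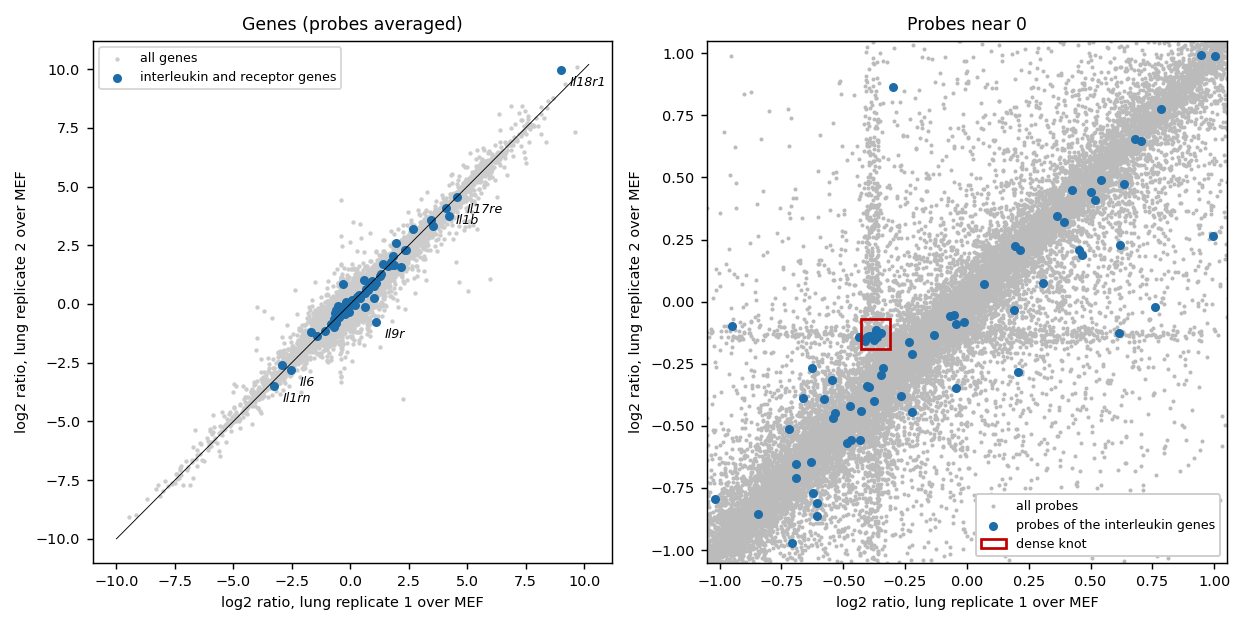
Lung replicate 1 (x axes) against lung replicate 2 (y axes), both as log2 ratio over MEF, for all genes with the 77 interleukin genes in blue (left) and for single probes near 0 (right). The red box marks the dense knot around -0.37 and -0.13, where 12 interleukin probes lie; Il9r, at 1.10 and -0.77, is the gene furthest from the diagonal among the 77.

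**Figure D3:**
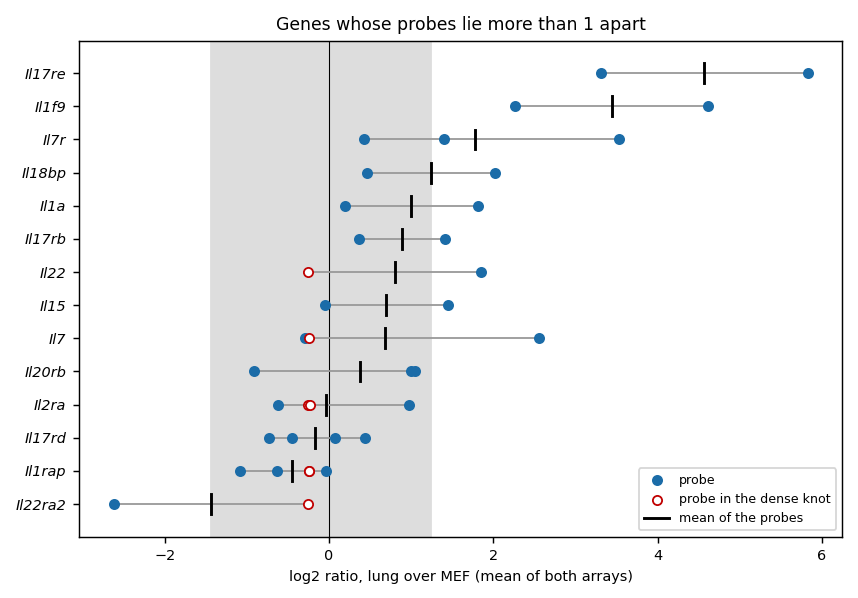
Mean log2 ratio of lung over MEF of each probe (points, x axis) for the 14 genes whose probes lie more than 1 apart (rows), with open red circles for probes in the dense knot and a black bar for the mean of the probes. The grey band spans -1.44 to 1.24. Both probes of Il17re and Il1f9 lie above the band, whereas Il7, Il22 and Il22ra2 each have a probe outside it and another in the knot.

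Many interleukin genes lie side by side in the genome, and the runs of neighbours held both like and unlike ratios. In the order of protein-coding genes of the RefSeq table (assembly GRCm38.p6) there were 14 runs of adjacent Il genes, with 38 genes of which 35 were measured. In 8 of the 14 runs no measured gene was 2-fold apart. Of all genes 32.5% were 2-fold apart, and runs of other genes were not counted, so the 8 runs have no background. The IL-1 receptor run held Il1r2 (2.29), Il1r1 (0.78), Il1rl2 (-0.29), Il18r1 (9.49) and Il18rap (0.13) by mean log2 ratio, so the highest gene directly adjoined one near 0. In the IL-1 ligand run, Il1f9 (3.44) stood at one side and Il1f10 (-1.11) and Il1rn (-3.37) at the other, the only run with 2-fold differences in both directions. Il17re (4.57) adjoined Il17rc (0.31), its sister receptor. Il22ra2 and Il20ra, both lower, were adjacent as well. The 4 genes Il24, Il20, Il19 and Il10 all lay between -0.69 and -0.25.

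**Figure D4:**
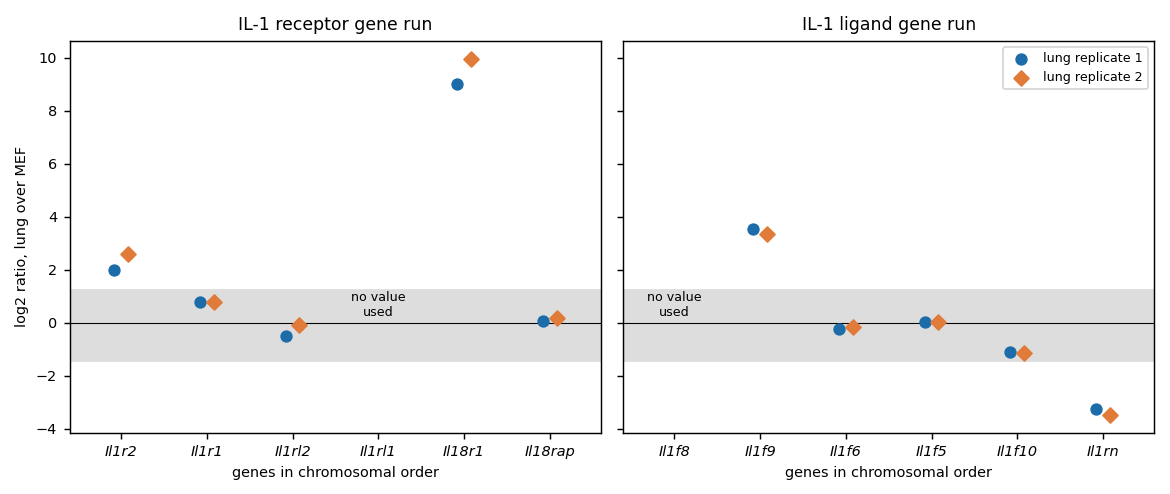
Log2 ratio of lung over MEF (y axis) for genes of the IL-1 receptor run (left) and the IL-1 ligand run (right), in chromosomal order (x axes, not to scale). Circles are lung replicate 1, diamonds lung replicate 2, and the grey band spans -1.44 to 1.24. Il18r1 at 9.01 and 9.97 adjoins Il18rap at 0.08 and 0.17, and Il1f9 and Il1rn lie on opposite sides of the band.

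Genes that relay or restrain interleukin signals were read against the same background, with 32.5% of all genes 2-fold apart and 76.2% called. The 2-fold counts were 2 of 10 JAK kinases and STAT factors, 5 of 10 feedback inhibitors, 2 of 12 adaptors and kinases and 3 of 7 processing genes. Calls in these lists are those as deposited and were not recomputed with the other centrings. Of 10 measured JAK kinases and STAT factors, 7 were higher and 0 lower (median 0.66). Past 2-fold were Stat4, the transcription factor that relays IL-12, with 3.81 and 3.74, and Jak3, the kinase of the common gamma chain, with 1.65 and 1.58. Of 10 feedback inhibitors, 4 were higher and 4 lower. Among the inhibitors, Socs2 (3.50 and 3.57) and Cish (2.99 and 2.92), both induced through STAT5, and Socs7 (2.16 and 1.98) were 2-fold higher. Socs1 (-1.33 and -1.31) and Pias3 (-1.21 and -1.69) were 2-fold lower. Of 12 adaptors and kinases of the IL-1 and IL-17 receptors, 5 were higher and 6 lower. There the dampening receptor Sigirr had 2.48 and 2.36, and the kinase gene Map3k7 had -2.24 and -2.21. Of 7 genes that process IL-1 and IL-18, 5 were higher and 0 lower. They included Casp1, the protease that matures both cytokines, with 1.66 and 1.63, Gsdmd, the pore protein that releases them, with 1.65 and 1.66, and the related protease gene Casp4 with 1.13 and 1.12.

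Of 14 related cytokines and receptor chains without an Il symbol, 7 were called higher and 6 lower as deposited, where 76.2% of all genes were called. By size on both arrays, 4 were 2-fold higher and 3 were 2-fold lower (50% in either direction, against 32.5% of all genes). Csf2, which encodes GM-CSF, the growth factor of alveolar macrophages, had 5.97 and 5.47. Tslp, an epithelial alarmin, had 3.04 on both arrays. Clcf1, a gp130 ligand, had 1.70 and 1.84, and the GM-CSF receptor chain Csf2ra had 1.71 and 1.69. Lower were Osmr, the oncostatin M receptor that pairs with gp130, with -2.08 and -2.11, Cntfr with -1.57 and -1.51, and Cntf with -1.35 and -1.20.

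Marker genes of leukocytes are given beside the interleukin genes. All 12 T and NK cell markers were higher in lung (0.78 to 7.25, median 3.39), as were all 7 measured neutrophil markers (1.71 to 9.88) and all 4 measured markers of group 2 innate lymphoid cells (0.33 to 2.12). Of the receptor chains known from lymphocytes, Il18r1, Il2rb, Il12rb1, Il7r and Il27ra were 2-fold higher, as was Il10ra of leukocytes. Il4ra (0.67) and Il15ra (0.34) were called higher by less than 2-fold. Il6st (-0.85), whose product pairs with that of Il27ra, was called lower. Il2ra (-0.04), Il18rap (0.13), Il12rb2 (-0.20), Il23r (0.24), Il9r (0.17) and Il13ra2 (-0.27) did not pass the test. Il21r (-0.32) and Il13ra1 (-0.29) were called lower as deposited only. Of 6 B cell markers 4 were higher and 0 lower. Macrophage markers split, with 4 higher and 3 lower of 7 (Ccr2 at 5.89, C1qa at -2.95). Mast cell and basophil markers also split, with 3 higher and 4 lower of 8 (-2.39 to 5.70). By size on both arrays, 3 macrophage markers were 2-fold higher and 2 were 2-fold lower. Of the mast cell and basophil markers, 3 were 2-fold higher and 1 was 2-fold lower. Marker calls are those as deposited, and the smaller ones were not recomputed with the other centrings. Markers lower in lung, as Il6, Il1rn and Il20ra were, included all 8 of cultured fibroblasts, and also Adgre1 (-2.02 and -1.98) and C1qa of macrophages and Mcpt8 (-2.81 and -1.96) of basophils. The part of cell makeup in any of these differences was not tested.

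**Figure D5:**
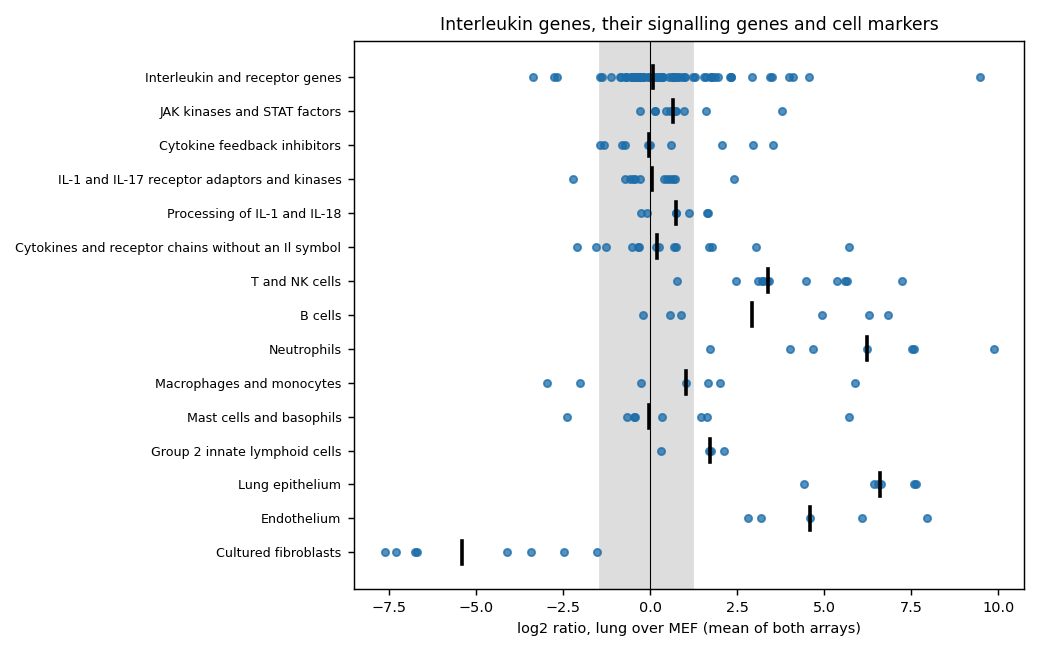
Mean log2 ratio of lung over MEF (x axis) of each gene (points) in the interleukin group, in the signalling lists and in the cell marker lists (rows), with the median as a black bar and the grey band from -1.44 to 1.24. The interleukin genes centre on 0.08 with wide tails, T and NK cell, neutrophil, epithelial and endothelial markers lie to the right, and all 8 fibroblast markers lie to the left.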

How the data were processed

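RNA of 2 uncultured mouse lung samples was measured against MEF RNA on 2 two-colour arrays. The authors deposited 1 table of log ratios, read here as log2, made with Agilent Feature Extraction per the submitters' processing notes. How background and dye bias were treated is not given in the sources used here. Dyes were not swapped, so dye effects stay in every ratio. The largest value, 10.1 in size, would be beyond a scanner's range as log10; natural logarithms remain possible. The columns were not centred, with medians of -0.28 (replicate 1) and -0.14 (replicate 2) over all probes. Intensities and flags were not used, so the number of arrays is the only stated limit on precision.

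Probes were named through the platform annotation: 32664 of 41174 carried 1 symbol, 45 several and 8465 none. Probes of a gene were averaged. All 77 genes matched RefSeq by Entrez identifier with an unchanged symbol. Ratios of all 19532 genes were tested for a mean of 0 by limma 3.58.1 (R 4.3.3) (intercept only, eBayes, two-sided, Benjamini-Hochberg, threshold 0.05), with 1 residual and 1.22 prior degrees of freedom. MEF is present as the other channel only, so its own spread is left out. By the rule for naming, every interleukin gene past 2-fold on both arrays was named, and their partner chains, ligands and antagonists and up to 5 companion genes past 2-fold in each direction could be; not all of the companion genes were. The other interleukin genes and Csf1r were named after their values were seen, to account for every member. The members, lists and tests were chosen with earlier results of these data known.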

Additional observations from a re-analysis of the deposited data

How the results depend on the processing

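The 25 genes past 2-fold on both arrays kept their sign under every alternative tried. Without moderation of the variance 17 of them did not pass the test, and tested against a 2-fold change 4 did not (Il12a, Il1f10, Il22ra2 and Il5ra). Counts of called genes fell most with the test: 10 higher and 3 lower without moderation, and 17 higher and 4 lower tested against 2-fold, compared with 33 and 28. With the arrays centred on the olfactory and vomeronasal genes 10 genes were called lower and 3 were 2-fold lower, and 80% of calls were higher in lung, against 54.1% as reported and 63.6% with the arrays centred on their medians. Over all genes these shares were 63.6%, 42.8% and 51.3%. The median over the 77 genes was 0.49 with receptor centring, 0.26 with median centring, 0.24 with the most extreme probe of each gene and 0.26 without the dense knot, an alternative chosen after seeing the data. It ran from -0.032 without replicate 1 to 0.021 without replicate 2, so its sign is not settled. Counts of 2-fold higher genes without a replicate ran from 20 to 22, and those of 2-fold lower genes were 6 each time. Read as natural logarithms, 23 genes were 2-fold higher and 8 lower. The cause of these shifts was not tested. Leaving out a replicate leaves no residual degree of freedom, so calls could not be recomputed. No paired analysis was possible because the arrays form a single group. The intensities that would show which ratios rest on dim channels were not used.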
